A study of Mus musculus with 924 samples.

Results

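The genes described here are the 3 latrophilins (Lphn1, Lphn2 and Lphn3, now also called Adgrl1, Adgrl2 and Adgrl3), the 4 teneurins (Tenm1 to Tenm4) and the 3 Flrt genes (Flrt1 to Flrt3), 10 of the 25392 genes in the deposited table. They were chosen by name as a family of binding partners and selected on their measured levels in CA1, CA2/3 and DG of these same nuclei, so their regional levels are given as a description, with no test. Latrophilins are adhesion G protein-coupled receptors, teneurins are large single-pass transmembrane proteins, and Flrts are leucine-rich repeat proteins of the membrane. Across the synaptic cleft a latrophilin can bind a teneurin and a Flrt at the same time, teneurins can also bind each other, and Flrts also bind receptors of the Unc5 family. In the hippocampus, Tenm3 and Lphn2 are known for guiding the wiring between CA1 and its target, and latrophilins that bind teneurins and Flrts together for shaping the excitatory inputs of CA1 pyramidal neurons.

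The study sequenced 924 single nuclei from microdissected hippocampus of mice, with 1 full-length library and 1 sample per nucleus. C57BL/6 mice at 12 weeks were the source of 4 preparations of the dentate gyrus (DG, 305 nuclei), 2 of CA1 (99 nuclei) and 2 of CA2/3 (117 nuclei). Other C57BL/6 nuclei came from mice of 4 weeks (113 nuclei) and 2 years (135 nuclei), in 2 preparations each, of which 4 weeks 1 and 2 years 2 are labelled DG and the other 2 carry no region. The remaining nuclei came from 12-week vGAT-Cre mice (Slc32a1tm2(cre)Lowl), which express Cre in inhibitory neurons and had received an AAV1/2 carrying a Cre-dependent EYFP-KASH tag of the nuclear envelope, and were collected as sorted DG (133 nuclei in 2 preparations) and sorted CA (22 nuclei in 1 preparation). A preparation is the set of nuclei that share a group and a number in their labels, which do not say that a number is 1 animal, so p-values here reflect how preparations vary, which can be a technical variation.

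Clustering without the 10 genes gave 12 clusters, named from marker lists as excitatory-like (granule-like, or pyramidal-like with 167 nuclei), 128 GABAergic-like and 74 glial-like (46 astrocyte-like, 28 oligodendrocyte-like), with 29 unnamed. The dissections were mixed: CA2/3 preparation 3 held 13 granule-like among 40 excitatory-like nuclei, CA1 preparation 1 held 8 among 45, and DG preparation 1 held 20 pyramidal-like among 109. The vGAT-Cre sort was also mixed, with GABAergic-like nuclei making 38 of 102 and 13 of 31 in sorted DG and 18 of 22 in sorted CA. Both CA1 preparations exceeded both CA2/3 preparations in 6 of 7 CA1 markers and the reverse held for 6 of 7 CA3 markers, while only 1 of 4 CA2 markers (Amigo2) was higher in CA2/3, so the CA2/3 dissection was marked by CA3 genes. The GABAergic marker sum was 9.64 to 10.9 in the excitatory-like nuclei of DG, 9.94 to 10.9 in CA1 and 11.6 to 16.3 in CA2/3. Sums of glial markers in the same nuclei also moved with region: the 8 astrocyte markers summed to 10.8 to 12.5 in DG, 16.6 to 18.1 in CA1 and 13.3 to 17.1 in CA2/3, the 7 oligodendrocyte markers to 10.1 to 13.7, 8.56 to 9.23 and 14.5 to 15.9, and the 6 microglia markers to 1.57 to 2.57, 2.91 to 5.13 and 2.58 to 2.85. DG was thus below both CA regions in astrocyte and microglia markers and between them in oligodendrocyte markers, without overlap. Mean detected genes per nucleus were 4734 to 4821 in DG, 5449 and 5848 in CA1 and 5137 and 5752 in CA2/3, and the part of the marker sums in the regional levels was not tested. Read depth was not given.

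The 10 genes lie on 9 chromosomes and span very different lengths. In RefSeq (GRCm38.p6) Flrt3 covers 13.3 kb at chr2:140658198-140671476 and Lphn1 41.9 kb at chr8:83900098-83941954, whereas Tenm2 covers 1230 kb at chr11:36006656-37237053 and Tenm3 1297 kb at chr8:48225665-49522824. Lphn2 lies at chr3:148815586-148989096, Lphn3 at chr5:81019085-81827825, Tenm1 at chrX:42527866-43429168, Tenm4 at chr7:96171244-96911093, Flrt1 at chr19:7087464-7166183 and Flrt2 at chr12:95692006-95785215. The 3 promoters shown belong to the most evenly detected member (Lphn1), to the member with the largest regional difference (Tenm4) and to the member with the most regular class difference (Flrt3). Each is the 250 bases before a RefSeq start that coincides with the end of the gene model, 5′ to 3′ on the gene's strand. Capitals mark GGGCGG on either strand (a GC box) and CANNTG (an E-box).
Lphn1, chr8:83899848-83900097, plus strand: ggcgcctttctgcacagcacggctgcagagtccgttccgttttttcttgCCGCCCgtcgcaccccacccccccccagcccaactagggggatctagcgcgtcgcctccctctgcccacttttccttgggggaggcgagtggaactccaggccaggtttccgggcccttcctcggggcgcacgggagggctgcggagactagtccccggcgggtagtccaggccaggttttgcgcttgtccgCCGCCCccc
Tenm4, chr7:96170994-96171243, plus strand: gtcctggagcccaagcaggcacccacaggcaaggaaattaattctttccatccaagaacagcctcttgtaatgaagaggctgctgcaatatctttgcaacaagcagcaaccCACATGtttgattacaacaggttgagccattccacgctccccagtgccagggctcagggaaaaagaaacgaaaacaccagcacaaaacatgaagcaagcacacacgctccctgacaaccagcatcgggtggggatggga
Flrt3, chr2:140671477-140671726, minus strand: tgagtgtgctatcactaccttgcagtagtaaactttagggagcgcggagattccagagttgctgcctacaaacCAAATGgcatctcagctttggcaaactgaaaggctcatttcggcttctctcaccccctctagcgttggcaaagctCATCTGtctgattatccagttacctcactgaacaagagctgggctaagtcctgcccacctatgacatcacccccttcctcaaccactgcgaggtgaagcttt
The Lphn1 window was 68.8% G or C with 21 CpG dinucleotides, 2 GC boxes and no E-box, against medians of 52.4% and 6 over 32851 RefSeq windows of the same length. The Tenm4 window had 50.8% G or C, 4 CpG and 1 E-box, and the Flrt3 window 5 CpG and 2 E-boxes. Of the 9 members with a window, 2 (Lphn1 and Lphn3) held a GC box, which 32.7% of all windows did, and 7 held an E-box, which 66.2% did. The members had 12 windows, with more than 1 for Lphn3 and Tenm4, and a match in any of them counted. The shares are per single window, so the counts and shares are unlike measures. A match is a run of letters and not a binding site.

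Levels are the mean over the nuclei of a preparation of log2(value + 1), where values are on a scale per transcript length. A difference of 1 is a 2-fold change in value + 1. Nuclei at 0 enter the mean, so an order between genes also follows how often each gene is found. Regional levels are of the excitatory-like nuclei of the 8 preparations of the 12-week C57BL/6 mice. The shared receptors came first. Lphn1 was high everywhere, at 9.11, 8.75, 9.35 and 8.61 in the 4 DG preparations, 9.12 and 7.89 in CA1 and 8.79 and 7.91 in CA2/3. The ranges overlapped in all 3 comparisons. Lphn3 was at 3.77, 3.79, 4.71 and 3.78 in DG, 7.67 and 7.96 in CA1 and 8.01 and 6.57 in CA2/3. Every DG preparation was thus below every CA preparation, by 3.28 on average against CA2/3 (DG mean 4.01 ± 0.47, SD, n = 4). CA1 and CA2/3 overlapped in these mixed excitatory-like nuclei. In pyramidal-like nuclei alone they did not, at 8.46 and 8.57 in CA1 and 8.14 and 7.09 in CA2/3.

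Lphn2 was the receptor that separated CA1 from both other regions. Its level was 5.89 and 4.97 in CA1, 1.56 and 1.31 in CA2/3, and 0.23, 0, 0.22 and 0.50 in DG, where preparation 2 was listed at 0 in all its nuclei. The mean difference was 3.99 between CA1 and CA2/3 and -5.19 between DG and CA1, and no preparation of one region reached those of another. In the order of levels over all 10 genes in pyramidal-like nuclei of CA1, Lphn2 (6.26 ± 1.28, SD, n = 2) stood the fifth and did not differ from its lower neighbour Flrt3 (6.13 ± 1.99) beyond the spread, whereas it was the last in granule-like nuclei of DG (0.15 ± 0.10, n = 4).

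**Figure D1:**
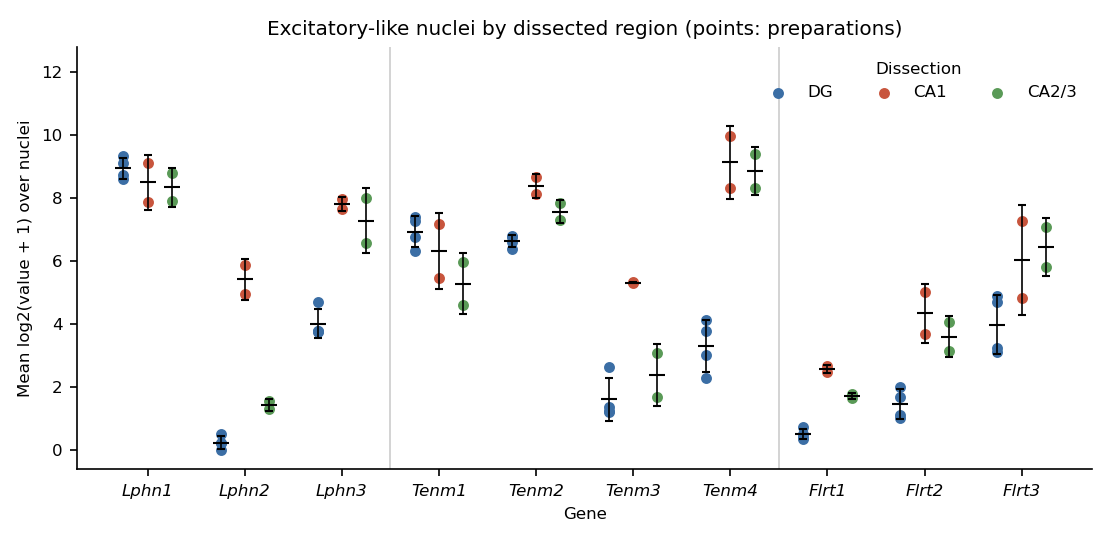
Mean log2(value + 1) of each gene in excitatory-like nuclei, with points for preparations (4 DG, 2 CA1, 2 CA2/3), horizontal lines for the mean and bars for the SD. Lphn2 and Tenm3 stand apart in CA1, Tenm4 and Lphn3 in both CA regions, and Lphn1 is level across regions.

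Of the presynaptic partners, Tenm4 had the largest regional difference. It measured 4.12, 3.01, 3.80 and 2.29 in DG, 8.33 and 9.96 in CA1, and 9.40 and 8.32 in CA2/3. DG was therefore lower by 5.84 than CA1 and by 5.56 than CA2/3 without overlap, and the 2 CA regions overlapped. Tenm3 instead followed the CA1 pattern of Lphn2, at 5.32 and 5.31 in CA1, 3.08 and 1.70 in CA2/3 and 1.23, 1.36, 1.25 and 2.64 in DG. The CA1 preparations were above all others by a mean of 2.93 over CA2/3, while CA2/3 and DG overlapped.

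Tenm2 was high in all 3 regions with a shallow gradient, at 8.13 and 8.67 in CA1, 7.85 and 7.31 in CA2/3, and 6.40 to 6.81 in DG. Tenm1 ran the other way and was the single member above CA2/3 in every DG preparation, at 6.76, 7.42, 7.27 and 6.32 in DG, 5.47 and 7.18 in CA1, and 4.60 and 5.97 in CA2/3. The Tenm1 difference of 1.66 between DG and CA2/3 turned to -0.31 when detected genes per preparation entered as a covariate. Its difference of 0.62 from CA1, where the ranges overlapped, turned to -1.94 with that covariate and to -0.23 without CA1 preparation 1. DG and CA did not overlap in detected genes, so the covariate cannot be separated from region there.

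All 3 Flrts were lower in DG than in at least 1 CA region. Flrt2, which also binds Unc5 receptors, was at 1.01, 1.11, 1.69 and 2.02 in DG, 5.02 and 3.69 in CA1 and 4.06 and 3.15 in CA2/3, so that DG stood apart and the CA regions overlapped. Flrt1 was the lowest Flrt and was ordered CA1 (2.67 and 2.50), CA2/3 (1.79 and 1.65) and DG (0.35 to 0.73) without overlap. Flrt3 was at 4.88, 3.24, 3.11 and 4.69 in DG, 4.82 and 7.28 in CA1, and 5.80 and 7.09 in CA2/3. Both CA2/3 preparations exceeded DG, by a mean of 2.47, but the lower CA1 preparation fell inside the DG range.

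Counted together, 7 of 10 members were lower in all DG than in all CA1 preparations and none higher, where 35.7% of 11428 genes were lower and 7.30% higher (43.0% in all). Against CA2/3 the members lower in DG also numbered 7 (29.9% of genes) and 1 was higher (7.77%, 37.7% in all). Between CA1 and CA2/3, 4 members were higher in CA1 (17.6% of genes) and none lower (11.8%, 29.4% in all). These counts rest on the pattern by which the genes were chosen, and nothing is read from them. The median difference over the 10 genes was -2.49 for DG minus CA1, -1.20 for DG minus CA2/3 and 0.78 for CA1 minus CA2/3, beside medians of all genes of -0.57, -0.44 and 0.13. Relative to those medians the differences of Lphn2 and Tenm3 between CA1 and CA2/3 were 3.86 and 2.79, and that of Lphn1 was 0.02. Detected genes per preparation were 4734 to 4821 in DG and 5137 to 5848 in CA, without overlap. As a covariate they cannot be separated from region between DG and CA. With this covariate, Lphn2 differed by -4.31 between DG and CA1 and 3.79 between CA1 and CA2/3. Tenm3 differed by 2.56 between CA1 and CA2/3, and Tenm4 by -6.11 and -5.77 between DG and the CA regions. Between DG and CA1, Flrt2 moved from -2.90 to -1.07, Tenm3 from -3.70 to -2.10 and Flrt3 from -2.07 to -4.80, and Tenm3 between DG and CA2/3 turned from -0.77 to 0.45. The CA1 and CA2/3 pyramidal-like nuclei fell in different clusters by preparation number: 23 of 37 in CA1 preparation 1 and 27 of 40 in CA2/3 preparation 1 were in cluster 6, against 15 of 26 and 24 of 27 in cluster 4 for the preparations numbered 3. With 1 CA preparation left out, the count between CA1 and CA2/3 rose to between 6 and 8, since fewer preparations must then be ordered.

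Restricting DG to its 244 granule-like nuclei and CA to pyramidal-like nuclei (63 in CA1, 67 in CA2/3) gave the make-up of each principal cell class. In granule-like nuclei the order was Lphn1 (8.93 ± 0.32), Tenm1 (6.93 ± 0.47) and Tenm2 (6.45 ± 0.27), then Lphn3 (3.97 ± 0.49), Flrt3 (3.84 ± 0.86) and Tenm4 (2.85 ± 0.79). Tenm1 and Tenm2 differed by less than the sum of their SDs, and Lphn3 and Flrt3 by less than either SD. In CA1 the order was Tenm4 (9.70 ± 0.52), Lphn3 (8.52 ± 0.08), Lphn1 (8.50 ± 0.94) and Tenm2 (8.48 ± 0.13), of which the last 3 were within their spread. In CA2/3 it was Tenm4 (9.81 ± 0.21), Lphn1 (8.47 ± 0.52), Tenm2 (8.09 ± 0.21) and Lphn3 (7.61 ± 0.74), with Tenm3 (2.39 ± 1.11), Lphn2 (1.81 ± 0.18) and Flrt1 (1.70 ± 0.32) at the foot.

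Per nucleus, a gene was taken as detected at a value above 1. Lphn2 was detected in 44 of 63 CA1 pyramidal-like nuclei (69.8%, 95% Wilson interval 57.6 to 79.8), in 25.4% (16.5 to 36.9) in CA2/3 and in 5 of 244 granule-like nuclei (2.05%, 0.878 to 4.71). The 40 granule-like nuclei of DG preparation 2 had none, which allows a share of up to 7.5%. Tenm3 was detected in 66.7% of CA1, 29.9% of CA2/3 and 20.5% of granule-like nuclei. The Lphn2 share was 78.4% and 57.7% in the CA1 preparations and 25% and 25.9% in those of CA2/3, and no pair of ranges between regions overlapped. Median detected genes per nucleus in these preparations were 6168 and 5594.5 for CA1 and 6486.5 and 5548 for CA2/3.

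Tenm4 was found in every one of the 67 CA2/3 nuclei, in 95.2% of CA1 and in 35.2% of granule-like nuclei. Lphn1 was detected in 98.4% of granule-like and in all CA nuclei, and Tenm1 in 82.0% of granule-like nuclei against 69.8% in CA1 and 61.2% in CA2/3. As a measure of how common each gene was outside the principal cells, Lphn2 was detected in 17.2% of 128 GABAergic-like and 10.8% of 74 glial-like nuclei, and Tenm3 in 75 of the 128 and 37 of the 74. Where detected, the median value of Tenm4 was 1376 in CA1 and 268 in granule-like nuclei. In CA1 the same median was 627 for Lphn2 and 577 for Flrt3, above 488 for Lphn1 and 495 for Tenm2. By level Lphn2 and Flrt3 stood below Lphn1 and Tenm2 there, so the orders of levels also follow detection. The Wilson intervals cover counting error only, and nuclei of 1 preparation share their source.

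**Figure D2:**
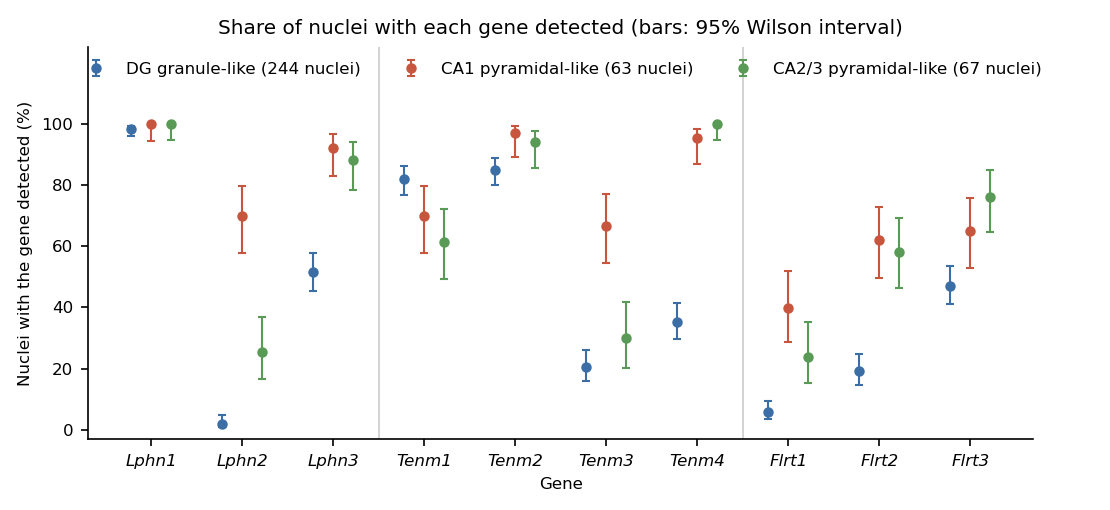
Share of nuclei (percent) in which each gene was detected, by principal cell class of each region, with bars for the 95% Wilson interval. Lphn2 falls from 69.8% in CA1 to 25.4% in CA2/3 and 2.05% in DG, whereas Lphn1 is near 100% in all 3.

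The sets detected together in single nuclei differed in the same way. Granule-like nuclei held Lphn1 alone (115 nuclei, 47.1%) or Lphn1 with Lphn3 (120, 49.2%), CA2/3 nuclei mostly Lphn1 with Lphn3 (43, 64.2%), and CA1 nuclei mostly all 3 latrophilins (43, 68.3%). Among teneurins, the leading set was Tenm1 with Tenm2 in granule-like nuclei (77, 31.6%), all 4 teneurins in CA1 (28, 44.4%), and Tenm1, Tenm2 and Tenm4 in CA2/3 (25, 37.3%). No Flrt was detected in 96 granule-like nuclei (39.3%), in 4 of CA1 (6.35%) and in 6 of CA2/3 (8.96%), and Flrt3 alone was the commonest single Flrt in granule-like nuclei (90, 36.9%). A granule-like nucleus held a median of 4.5 of the 10 genes, a CA1 nucleus 8, a CA2/3 nucleus 7, a GABAergic-like nucleus 6 and a glial-like nucleus 4. The number of detected genes differed with some members and not with others: in CA1 the median was 6071.5 genes in nuclei with Lphn2 and 4884 in those without, but 5913 and 5891 for Tenm3 and 5864 and 6103.5 for Flrt2, and in CA2/3 it was 5866 and 5812 for Lphn2. The part of this in the shares and sets was not tested.

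**Figure D3:**
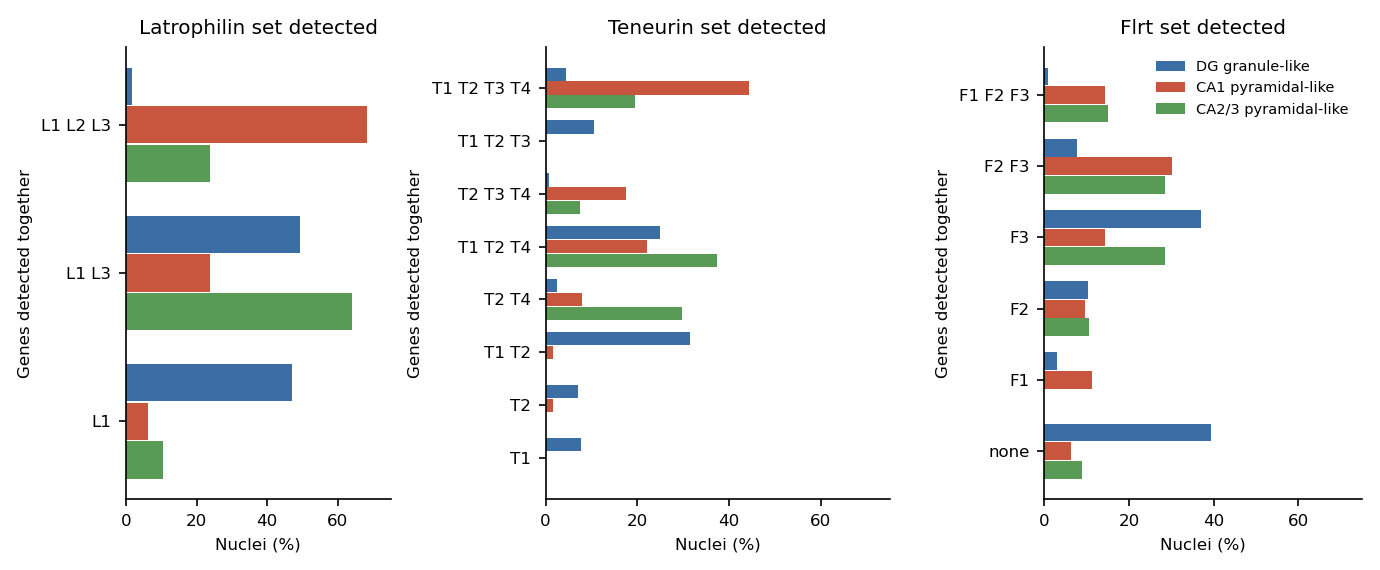
Percent of nuclei holding exactly each set of latrophilins (L1 to L3 for Lphn1 to Lphn3), teneurins (T1 to T4 for Tenm1 to Tenm4) and Flrts (F1 to F3 for Flrt1 to Flrt3), for the commoner sets, by principal cell class. All 3 latrophilins are the main set in CA1 (68.3%), Lphn1 with Lphn3 in CA2/3 (64.2%).

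Lphn2 and Tenm3 shared a regional pattern, and their joint detection was counted over CA1 nuclei. Of the 63 CA1 nuclei, 29 held both, 15 Lphn2 only, 13 Tenm3 only and 6 neither, so Tenm3 was found in 65.9% of nuclei with Lphn2 and 68.4% of those without. The shares were 65.5% and 87.5% in CA1 preparation 1, and 66.7% and 54.5% in preparation 3, which point opposite ways. The nuclei without Lphn2 numbered 19 and had fewer detected genes (median 4884 against 6071.5). These counts therefore cannot decide whether the 2 genes are related within CA1, which was not tested. In CA2/3, 7 nuclei held both, 10 Lphn2 only, 13 Tenm3 only and 37 neither. All 20 CA2/3 nuclei with Tenm3 also held Tenm4, which every nucleus there did.

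Other partners and effectors were taken from a list of 18 genes, of which 15 passed the filter on low values. In DG against CA1, 2 were higher without overlap (Unc5a among them; 7.30% of all genes) and 7 lower (35.7%). Against CA2/3, 2 were higher (Dlg4 and Unc5a; 7.77% of genes) and 8 lower (29.9%), and between CA1 and CA2/3, 2 were higher in CA1 (17.6%) and 5 lower (11.8%). The Unc5 netrin receptors that Flrts bind divided: Unc5a was 8.91 ± 0.49 in DG (n = 4), 7.68 ± 0.03 in CA1 and 7.49 ± 0.10 in CA2/3 (n = 2 each). In the same order, Unc5c was 2.90 ± 0.17, 3.02 ± 1.15 and 5.34 ± 0.56, and Unc5d was 1.29 ± 0.60, 1.68 ± 0.10 and 2.50 ± 0.25. Nrxn3, a neurexin, was 5.34 ± 0.60 in DG, 8.51 ± 0.72 in CA1 and 9.12 ± 1.10 in CA2/3. In a list of 32 other synaptic adhesion genes, 29 of them measured, 3 were higher and 10 lower in DG than in CA1, the latter near the 35.7% of all genes. Against CA2/3, 6 of the 29 were higher in DG (7.77% of all genes) and 11 lower (29.9%). Between CA1 and CA2/3, 7 of the 29 were higher in CA1 (17.6%) and 3 lower (11.8%). Lrrtm4, a heparan sulfate binding protein of granule cell synapses, was at 6.92 ± 0.72 in DG and 3.86 ± 0.97 in CA1. Cntnap2, a neurexin relative, went the other way at 1.22 ± 0.31 and 5.79 ± 0.38. The median difference between DG and CA1 was -0.72 over these 29 genes, -0.56 over the 15 partners and -0.57 over all genes. Between DG and CA2/3 it was 0.24, -0.84 and -0.44, and between CA1 and CA2/3 0.40, -0.28 and 0.13.

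Age was tested in granule-like nuclei, with limma over 10781 genes and Benjamini-Hochberg adjustment at 0.05. None of the 8 members that passed the filter was called between 4 and 12 weeks, where 12.6% of genes were, nor between 12 weeks and 2 years, where 0.399% were. At an unadjusted p under 0.05 there were 3 members in the first (27.3% of genes) and 2 in the second (12.4%). Lphn2 and Flrt1 were too low to test, at most 1.09 and 0.73 in any preparation. Both contrasts share the 12-week DG preparations, whose levels are among those by which the genes were chosen, so the age tests are not independent of that choice.

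Tenm1 had the largest difference at the younger age, at 5.07 and 5.50 at 4 weeks, 6.69, 7.42, 7.22 and 6.40 at 12 weeks, and 5.55 and 6.57 at 2 years. All 12-week preparations exceeded both 4-week ones, with a difference of 1.65 (SE 0.57, adjusted p = 0.0558). Tenm1 passed the threshold with either 2-year preparation left out, and in the settings given with the processing. Lphn3 was at 6.50 and 4.56 at 4 weeks, 3.57, 3.79, 4.68 and 3.84 at 12 weeks, and 5.65 and 6.15 at 2 years, so that both 2-year preparations lay above the 12-week range. Its differences were -1.56 (SE 0.62, adjusted p = 0.0971) from 4 to 12 weeks and 1.93 (SE 0.62, adjusted p = 0.156) from 12 weeks to 2 years. Flrt2 was at 3.23 and 1.98, then 0.85, 1.11, 1.59 and 2.14, then 1.71 and 2.36, and the first step had an adjusted p of 0.0906. No region label was given for 4 weeks preparation 2. Without it, or with preparations labelled DG alone, 4 weeks preparation 1 was the only one of its age. That preparation held 24 granule-like nuclei and had the higher Lphn3 and Flrt2 levels at 4 weeks, so calls in those settings are not read. Mean detected genes were 5075 and 5546 at 4 weeks, 4571 to 4835 at 12 weeks and 4922 and 5496 at 2 years, so 12 weeks lay below both other ages. With detected genes as a covariate, the Lphn3 differences became -0.36 and 0.94, those of Flrt2 -0.02 and -0.34, and that of Tenm1 from 4 to 12 weeks 2.02. Tenm4 was at 1.50 and 1.62 at 2 years and 1.80 to 3.70 at 12 weeks (-1.29, SE 0.51, adjusted p = 0.271).

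**Figure D4:**
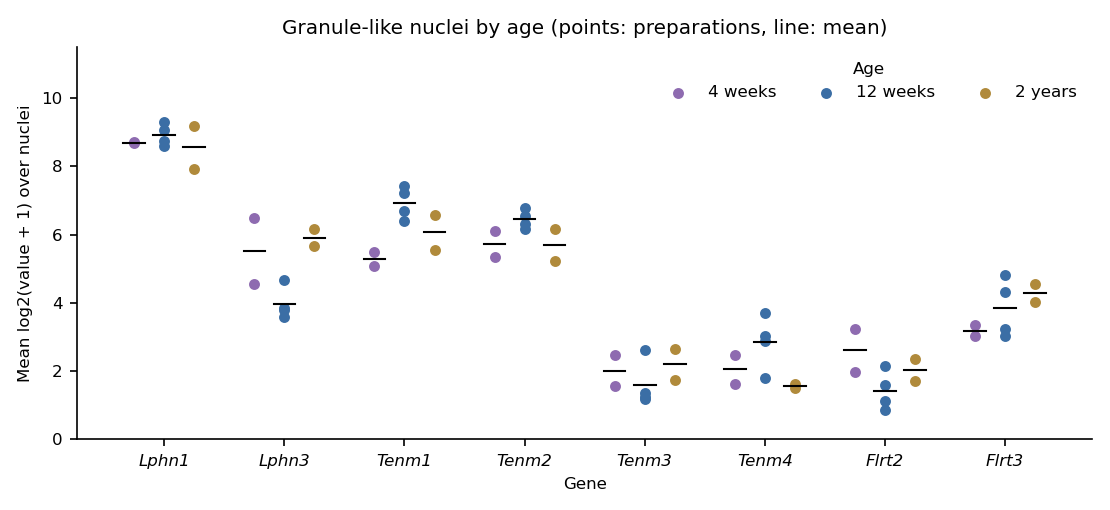
Mean log2(value + 1) of the 8 tested genes in granule-like nuclei at 4 weeks (2 preparations), 12 weeks (4) and 2 years (2), with points for preparations and lines for means. Tenm1 is lower at 4 weeks than in any 12-week preparation, and Lphn3 is above the 12-week range at 2 years.

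The 4-week granule-like nuclei were set apart in clusters, with 21 of 24 and 48 of 56 in cluster 7, and their granule marker sum was 58.7 to 63.0 beside 72.0 to 78.5 at 12 weeks and 69.1 to 76.7 at 2 years. The astrocyte marker sum was 15.9 to 18.6 at 4 weeks, 10.8 to 11.7 at 12 weeks and 14.1 to 14.7 at 2 years, and the GABAergic sum 9.82 to 10.1, 9.26 to 10.9 and 11.3 to 12.3. The part of these sums in the age differences was not tested. Among the partners, 3 of 14 tested rose from 4 to 12 weeks and 2 fell, where 12.6% of all genes were called and 32.2% of those calls were rises. Dcc, a netrin receptor, rose by 3.29 (adjusted p = 0.000169) and Shank1, a postsynaptic scaffold, by 2.99 (adjusted p = 0.000797), and both were called in 18 of 18 other settings. Nrxn3 fell by 2.14 (adjusted p = 0.0163) and then rose by 3.07 by 2 years (adjusted p = 0.0163), and Unc5d fell by 1.70 (adjusted p = 0.0162). Nrxn3 held its first call in 12 of 18 settings and its second in 9, and Unc5d in 11. All 3 calls were lost with the replicate block, detected genes as a covariate, all nuclei and the log2 of the mean value, and the second Nrxn3 call and that of Unc5d with no filter. Nrxn3 also lost its first call without 4 weeks preparation 1 or DG preparation 4 and its second without either 2-year preparation, DG preparation 3 or DG preparation 4, and Unc5d without 4 weeks preparation 1 or DG preparation 3. Of 29 other adhesion genes, 3 rose to 12 weeks and 1 fell, near the 12.6% of all genes, led by Clstn2, a calsyntenin, at 2.89 (adjusted p = 0.000864, called in 18 of 18 settings). Slitrk5 (2.19, adjusted p = 0.0179) was called in 12 of 18 settings and lost without either 4-week preparation or DG preparation 4, with the block, the log2 of the mean and no filter. Lrrtm4 (2.01, adjusted p = 0.0135) was called in 14 and lost without 4 weeks preparation 2, with the block, the log2 of the mean and preparations labelled DG alone. Clstn1 (-1.74, adjusted p = 0.0106) was called in 14 and lost without 4 weeks preparation 1, with all nuclei, the covariate and the log2 of the mean. The median difference from 4 to 12 weeks was 0.45 over the 8 members, 0.69 over the 14 partners and -0.21 over all genes.

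Cell class was the other comparison tested, and its excitatory-like units include the preparations whose levels served in the choice. The test ran over 30 units of a preparation and a class (14 excitatory-like, 9 GABAergic-like, 7 glial-like, each of at least 5 nuclei), with limma and preparation as a term over 16246 genes. In GABAergic-like nuclei 3 of 10 members were called, against 8.63% of all genes, with 2 of them higher (2.61%) and 1 of them lower (6.02%). The unadjusted p was under 0.05 for 6 members (20.6% of genes). Mean detected genes per unit averaged 5072 in excitatory-like, 4445 in GABAergic-like and 3792 in glial-like units.

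Flrt3 had the most regular difference. Its lowest, median and highest levels were 3.11, 4.63 and 7.28 in excitatory-like units and 0.74, 1.70 and 4.46 in GABAergic-like ones. GABAergic-like nuclei were lower in all 8 preparations with both classes, by 1.32 to 6.35, with a fitted difference of -3.48 (SE 0.69, adjusted p = 0.00103) that held with each preparation left out. The Flrt3 call was lost from the log2 of mean values (adjusted p = 0.146) and with nuclei of at least 4000 genes (adjusted p = 0.0541). Tenm3 rose instead, from a median of 1.91 (1.23 to 5.32) to 5.16 (2.42 to 10.1), by 2.68 (SE 0.85, adjusted p = 0.0454). It was higher in 7 of 8 preparations and lower in CA1 preparation 3, where excitatory-like nuclei themselves held 5.31. The call was lost without any 1 of 2 years 1, 4 weeks 2, CA2/3 1, DG 1, DG 3 or sorted DG 1, with adjusted p from 0.0514 to 0.144, and with a pseudocount of 10, no filter, nuclei rescaled to 1 total, the log2 of the mean or at least 10 nuclei per unit (adjusted p from 0.0618 to 0.326).

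Flrt2 rose from a median of 2.02 (1.01 to 5.02) to 3.87 (1.80 to 6.76), by 2.10 (SE 0.65, adjusted p = 0.0394), in 6 of 8 preparations. It was lower in CA1 preparation 3 (-0.42) and CA2/3 preparation 1 (-0.19). CA2/3 preparation 3 (3.32) and every DG or sorted DG preparation with both classes had it higher. That call was lost without any 1 of 2 years 1, CA2/3 3, DG 1, DG 3 or sorted DG 1, with adjusted p from 0.057 to 0.154, and with no filter, the log2 of the mean or nuclei of at least 4000 genes (adjusted p from 0.101 to 0.281). Lphn1 was lower in 8 of 8 preparations by a fitted 1.60 but missed the threshold (adjusted p = 0.0624). Tenm4 differed by 1.85 (SE 0.76, adjusted p = 0.140). Within preparations it was higher in GABAergic-like nuclei of 4 of 4 DG preparations and lower in 3 of 3 CA preparations, where pyramidal-like nuclei carry it at a high level.

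**Figure D5:**
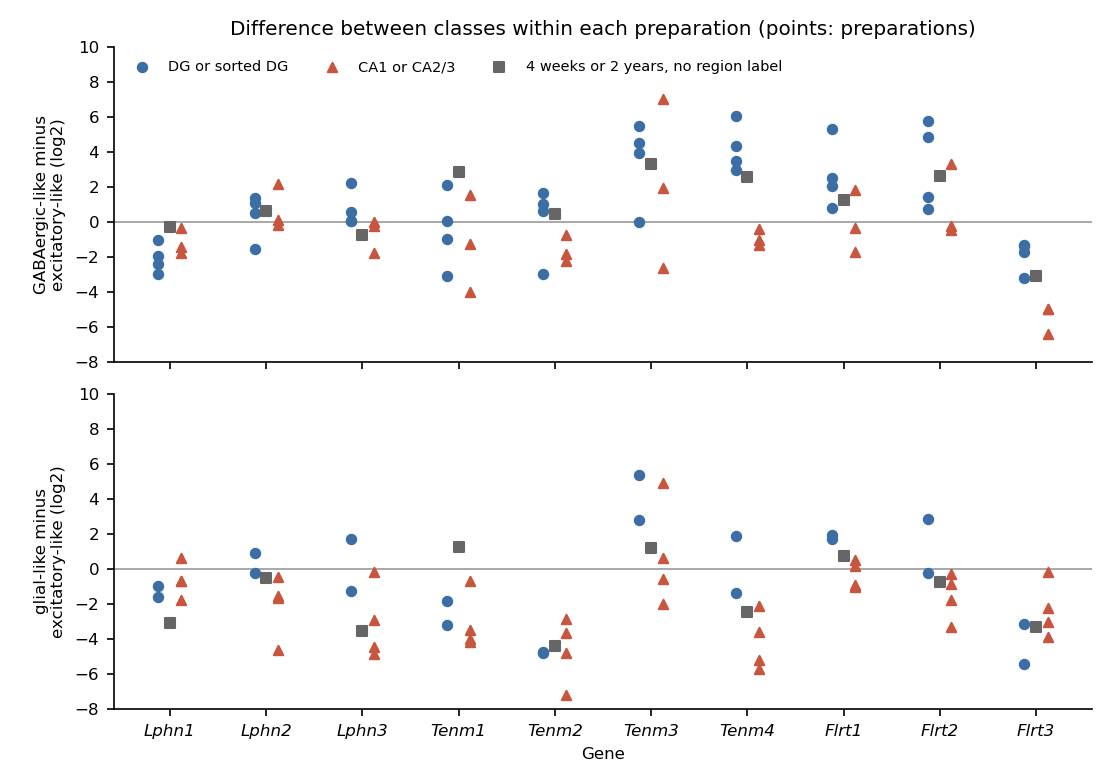
Difference in mean log2(value + 1) between GABAergic-like (upper panel) or glial-like (lower panel) and excitatory-like nuclei within each preparation, with points for preparations marked by region. Flrt3 is below 0 in all 8 and all 7 preparations, Tenm2 in all 7 of the lower panel, and Tenm4 divides by region in the upper panel.

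In glial-like nuclei 5 of 10 members were lower, against 18.6% of genes lower and 23.0% called, and none was higher (4.39%). At an unadjusted p under 0.05 there were 6 members (35.1% of genes). Tenm2 had the largest difference, with 0.95, 2.06 and 4.45 as lowest, median and highest level in glial-like units beside 5.17, 6.50 and 8.67 in excitatory-like ones, which do not overlap. It fell by 4.63 (SE 0.68, adjusted p = 1.18e-05), in 7 of 7 preparations, relative to a median of all genes of -0.41. Flrt3 fell by 2.73 (SE 0.73, adjusted p = 0.00713), also in 7 of 7. Both calls held with each preparation left out but were lost with detected genes as a covariate (adjusted p = 0.309 and 0.899), a quantity in which the classes themselves differ, and that of Flrt3 also from the log2 of mean values (adjusted p = 0.103).

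Tenm1 (-2.27, adjusted p = 0.0285), Tenm4 (-2.19, adjusted p = 0.0460) and Lphn3 (-2.04, adjusted p = 0.0445) were each lower in 6 of 7 preparations. Tenm3 was higher by 1.82 in 5 of 7 without passing (adjusted p = 0.146). It was called with detected genes as a covariate (6.50), with quantile normalization and with no replicate block. The glial-like units of CA2/3 carried pyramidal markers, with sums of 63.0 and 41.2 beside 4.68 to 19.4 in the others, and without them 2 members were called, Tenm2 (-5.50, adjusted p = 1.75e-06) and Flrt3 (-3.68, adjusted p = 0.000708). Tenm1, Tenm4 and Lphn3 then had adjusted p of 0.0660, 0.0762 and 0.0528. Tenm1 was also lost without CA1 1, CA1 3, CA2/3 3 or sorted DG 1, Tenm4 without 4 weeks 2, CA1 1, CA1 3, CA2/3 1 or DG 1, and Lphn3 without 2 years 1, 4 weeks 2, CA1 1, CA1 3, CA2/3 1 or sorted DG 1. These 3 calls were also lost with a pseudocount of 10, no filter, the log2 of the mean, quantile normalization or the covariate. Those of Tenm4 and Lphn3 were lost with no replicate block. At least 10 nuclei per unit left a single glial-like unit, of sorted DG 1, so calls in that setting are not read.

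The other partners took part in the clustering, so their class levels are a description. Unc5a had a mean of 8.07 ± 0.81 in 14 excitatory-like units, 3.15 ± 1.53 in 9 GABAergic-like and 2.26 ± 1.41 in 7 glial-like units. Unc5d went the other way in GABAergic-like units (1.92 ± 0.90 against 3.97 ± 1.94). Fgfr2, a growth factor receptor, was at 0.77 ± 0.68 in excitatory-like and 5.13 ± 2.64 in glial-like units. Shank1 was at 7.46 ± 1.19, 8.04 ± 1.54 and 3.56 ± 1.40 in the 3 classes. Nrxn3 was at 7.26 ± 1.65, 9.70 ± 1.71 and 4.74 ± 2.61, the highest in GABAergic-like units.

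Likeness of pattern was measured as Pearson's r over the same 30 units, which share preparations, depth and the split into classes, and is a description. Among the members the closest were Lphn2 with Tenm4 (0.68), Lphn3 with Tenm4 (0.65) and Lphn2 with Lphn3 (0.60). Lphn2 with Tenm3 had 0.42, and Tenm2 with Tenm3 -0.01. Across all tested genes, the 2 most like Lphn2 were Ankrd63 (0.84) and Igsf9b (0.80), and those most like Lphn3 were Dab2ip and Aig1 (0.80 each). Lphn1 was closest to Btbd9 (0.86) and Ramp1 (0.85), Tenm2 to Dennd6b (0.89) and Slc12a5 (0.88), and Tenm4 to St8sia5 and Slc6a7 (0.87 each). Tenm3 was closest to Gpc6 (0.83) and Tmem44 (0.81), Tenm1 to Prdm9 and Ccdc116 (0.69 each), Flrt1 to Cpq (0.83) and Vasn (0.79), Flrt2 to Nmbr (0.77) and Vat1l (0.75), and Flrt3 to Rab26 (0.79) and March1 (0.78).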

How the data were processed

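Single nuclei were sorted into plates and sequenced as modified Smart-seq2 libraries, and each nucleus is 1 sample. Per the submitters' processing notes, the authors used Bowtie2 and RSEM 1.27 with mm10 (GRCm38). The deposited table holds log values, taken by the authors as a natural log of TPM-like values after adding 1. That base was checked on the low values of 400 pairs of nuclei. Gaps for 1 read against 2 were enriched 3.03 times at the step of a natural log and 0.695 times at that of a log2. For 1 against 3 the values were 2.29 and 2.08, which hardly separate the bases. Summed over genes, a nucleus had a median of 4.42 times the total that TPM has by definition, so levels are on a TPM-like scale whose total varies. Read depth was not given. Nuclei had a median of 4882.5 detected genes (2022 to 8008).

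Values were back-transformed and log2(value + 1) was averaged over the nuclei of a preparation (at least 10 nuclei, or at least 5 per class), so a fold change understates that of low genes. A gene was tested if detected (value above 1) in at least 20% of nuclei of at least 1 unit. Clusters were made with scanpy 1.11.5 and leidenalg 0.10.2 without the 10 genes (2000 variable genes, 20 principal components, 15 neighbours, resolution 1.0, seed 0). No doublets were removed, and 1 cluster of 29 nuclei was left unnamed after it had been seen. Tests used limma 3.58.1 (R 4.3.3) with a trend in the variance, 2-sided, and were tested on simulated data. Where leaving out a preparation leaves 1 in a group, that one takes its spread from the other groups. The members and gene lists were chosen with earlier results of these data known. All members are named, with up to 4 listed genes per list and direction, and the 2 most like each member. The region groups were not tested. Counts over the partner list include 1 gene whose own values are not reported here.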

Additional observations from a re-analysis of the deposited data

Results flagged for a closer look

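In the excitatory-like nuclei of DG, preparation 3 had the highest Lphn3 level, 4.71, against 3.77 to 3.79 in the other 3, and preparation 4 had the highest Tenm3 level, 2.64, against 1.23 to 1.36. In both cases the gap to the next preparation, as a share of the range, exceeded the 95% critical value of Dixon's test. Chance does this in about 1 group in 20. The value served to pick cases and is not read as a test, since these levels are among those by which the genes were chosen. In granule-like nuclei alone the same preparations had 4.68 and 2.62, against 3.57 to 3.84 and 1.17 to 1.36 in the other 3. There the Lphn3 gap was a smaller share of the range and did not reach that critical value, whereas the Tenm3 gap did.

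The Tenm4 difference between GABAergic-like and excitatory-like nuclei had opposite signs in DG and CA. It was 2.97, 6.06, 4.35 and 3.50 in the 4 DG preparations, sorted ones included (mean 4.22), and -0.41, -1.32 and -1.02 in the 3 CA preparations (mean -0.92). The difference between the regions was not tested. The Tenm4 levels of the GABAergic-like nuclei themselves overlapped, at 7.09 to 9.85 in those DG preparations and 7.30 to 9.55 in those CA preparations.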

How the results depend on the processing

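Region counts kept within 1.5 times of 7 (DG against CA1) and 8 (DG against CA2/3) in every setting in which they were counted. The covariate and the replicate block give fitted differences and no such count. With 1 preparation left out, so that fewer must be ordered, these counts were 7 to 9 and 8 to 9. The CA1 against CA2/3 count of 4 then went to 6 to 8. With detected genes as a covariate, Tenm1 reversed between DG and CA2/3 (-0.31), as did Lphn3 (0.71) and Tenm4 (1.20) in glial-like nuclei. With at least 10 nuclei per unit, Tenm4 in glial-like nuclei was also reversed, at 0.92. That setting left a single glial-like unit, of sorted DG 1 (15 nuclei). The cause was not tested. Differences under 1 between CA1 and CA2/3 (Lphn1, Lphn3, Tenm4, Flrt3) changed sign when 1 preparation was left out, and Tenm3 between DG and CA2/3 with the covariate (0.45).

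From 4 to 12 weeks, 1 member (Tenm1) instead of 0 was called with a pseudocount of 10 or the log2 of the mean value. Tenm1 was also called with nuclei rescaled to 1 total, quantile normalization or nuclei of at least 4000 genes. With no filter, 1 member (Lphn2) was called. Preparations labelled DG alone left 1 preparation at 4 weeks, so no count is given. Leaving out any 1 DG preparation gave 0. From 12 weeks to 2 years the count was 0 in all settings. For GABAergic-like nuclei the count of 3 became 0 with the log2 of the mean, 1 with at least 4000 genes, 6 with no replicate block, and 1 to 4 with 1 preparation left out. For glial-like nuclei the count of 5 became 1 with detected genes as a covariate (Tenm3) or from the log2 of mean values. It became 2 with a pseudocount of 10, no filter or the CA2/3 glial-like units left out (a setting chosen after seeing the data). It was 3 with quantile normalization and 2 to 5 with 1 preparation left out. With at least 10 nuclei per unit, a single glial-like unit was left, so no count is given. At least 4000 genes gave no glial value. Over the values of single members in all settings, 91 were counted as moved beyond the spread, 38 as losing and 21 as gaining a call. The 4 given above were counted as reversed, and 628 as none of these. A change of sign alone was not always counted as a reversal. Between DG and CA1, Tenm1 turned from 0.62 to -1.94 with detected genes as a covariate and was counted as moved. Lphn1 turned there from 0.45 to -0.17 without CA1 preparation 3 and was counted among the 628. The 628 thus include differences that changed sign, also those of Lphn1, Lphn3, Tenm4 and Flrt3 between CA1 and CA2/3.

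The preparation number as a replicate block left 0 members called at both ages, and 498 and 2 genes beside 1358 and 43. The numbers are not shown to pair the samples: deviations of same-numbered CA1 and CA2/3 preparations correlated at 0.40, but CA1 and DG at 0.02 and -0.07 and CA2/3 and DG at 0.15 and -0.04. The block cannot change a difference between CA1 and CA2/3, since both hold preparations 1 and 3, and that of Lphn2 stayed at 3.99. From 4 to 12 weeks the calls over all genes were 12.6%, but 6.36% for the log2 of mean values, 7.50% with the covariate and 6.19% without 4 weeks 1. From 12 weeks to 2 years they were 0 to 111 genes. For GABAergic-like nuclei 8.63% became 3.82% with the log2 of the mean and 4.60% with at least 4000 genes. It became 5.80% with at least 10 nuclei and 14.8% with no replicate block. For glial-like nuclei 23.0% became 1.66% with the covariate, 12.2% from the log2 of mean values and 14.3% with quantile normalization. The share of calls that were higher moved from 32.2% to 51.5% (4 to 12 weeks), from 93.0% to 66.2% (12 weeks to 2 years), from 30.2% to 40.6% (GABAergic-like) and from 19.1% to 50.3% (glial-like) with quantile normalization, and to 42.4% (4 to 12 weeks) with nuclei rescaled. With 2 to 4 preparations per region or age and read depth not given, small differences could not be resolved.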
